A study of Papio anubis with 25 samples.

Results

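The tissue kallikreins are secreted serine proteases encoded by a row of neighbouring genes. The genes described here were the 10 rows of the deposited abundance table with the symbols KLK1, KLK5, KLK6, KLK7, KLK8, KLK10, KLK11, KLK12, KLK13 and KLK14, of 21287 genes in all. They were taken by symbol, from a list chosen with earlier results of these data known. KLK3, KLK4, KLK9 and KLK15 were also in the table and are given at the end. RNA had been sequenced from the left parotid, submandibular and sublingual glands, the pancreas and the liver of 5 olive baboons (Papio anubis), with 1 library per tissue and animal, 25 in all. The male was baboon 5, and the other 4 animals were female. Every tissue was flash frozen, no treatment is given, and ages are not given in the sources used here. Values are in TPM, a length-corrected abundance relative to the whole library, which sums to the same total in each. The series was built to compare salivary glands with pancreas, and pancreas with liver, within the same animals. Because each library is a bulk tissue section, fewer cells of a type and less RNA per cell cannot be told apart.

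KLK1, also called glandular kallikrein, cuts kininogen to release kallidin, a peptide that dilates vessels through the bradykinin receptors, and it has long been known from saliva, pancreas and kidney. Several of the other members act in stratified epithelia, where KLK5, KLK7, KLK8 and KLK14 take part in the shedding of surface cells by cutting the proteins that hold those cells together. The inhibitor LEKTI, the product of SPINK5, restrains KLK5, KLK7 and KLK14. In the gene order of the RefSeq Panubis1.0 table, 14 genes with a kallikrein symbol lay in a row of 15 genes, from KLK1 at one end to KLK14 at the other. KLK5, KLK6, KLK7, KLK8, KLK9, KLK10, KLK11, KLK12, KLK13 and KLK14 followed each other without interruption. KLK1 was separated from KLK5 by KLK15, KLK3, KLK4 and LOC101006181, which was listed at 0 in each library. Kallikreins were counted by symbol, and whether LOC101006181 encodes another one was not checked.

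The sections of a tissue were unequal in content, and this touches every gland result below. Marker lists were summed per library. The stratified squamous list (9 genes used, among them KRT13 and SPRR3) reached 113890 TPM in the sublingual library of baboon 1 and 49430 TPM in that of baboon 4, against 353.7 to 523 TPM in the other 3 sublingual libraries. The skeletal muscle list reached 82104 TPM in the sublingual library of baboon 2. The adipocyte list reached 20189 TPM in the parotid library of baboon 2, and 2662 and 6348 TPM in the submandibular libraries of baboons 2 and 5. The lymphoid list reached 737 TPM in the parotid library of baboon 5. AQP5, the water channel of salivary acini, was under 10 TPM in the parotid libraries of baboons 2 and 5, the submandibular library of baboon 2, and baboons 2 and 4 in sublingual gland. It ranged from 40.5 to 226 TPM in the other 10 of 15 gland libraries. Pancreatic acinar and hepatocyte markers marked the pancreas and liver libraries as labelled.

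The 10 members fell into few patterns. KLK1 was the highest member in 15 of 25 libraries, including all 5 of pancreas. KLK12 was highest in 8 libraries, including all 5 of liver, and KLK11 in 2, the sublingual libraries of baboons 1 and 4. KLK6 was mainly a salivary transcript, KLK5, KLK10, KLK11 and KLK13 were highest in those same 2 sublingual libraries, KLK8 was highest in that of baboon 1, and KLK14 did not exceed 2.65 TPM anywhere. Tissues were compared with limma on log2(TPM + 1) with the animal as a block, and a gene counts as called when its p adjusted over all genes tested was under 0.05 and its log2 fold change was 1 or more in size. All 10 members reached a mean of 1 TPM in at least 1 tissue and so entered the tests. KLK5, KLK10 and KLK13 did so through the sublingual gland alone.

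**Figure D1:**
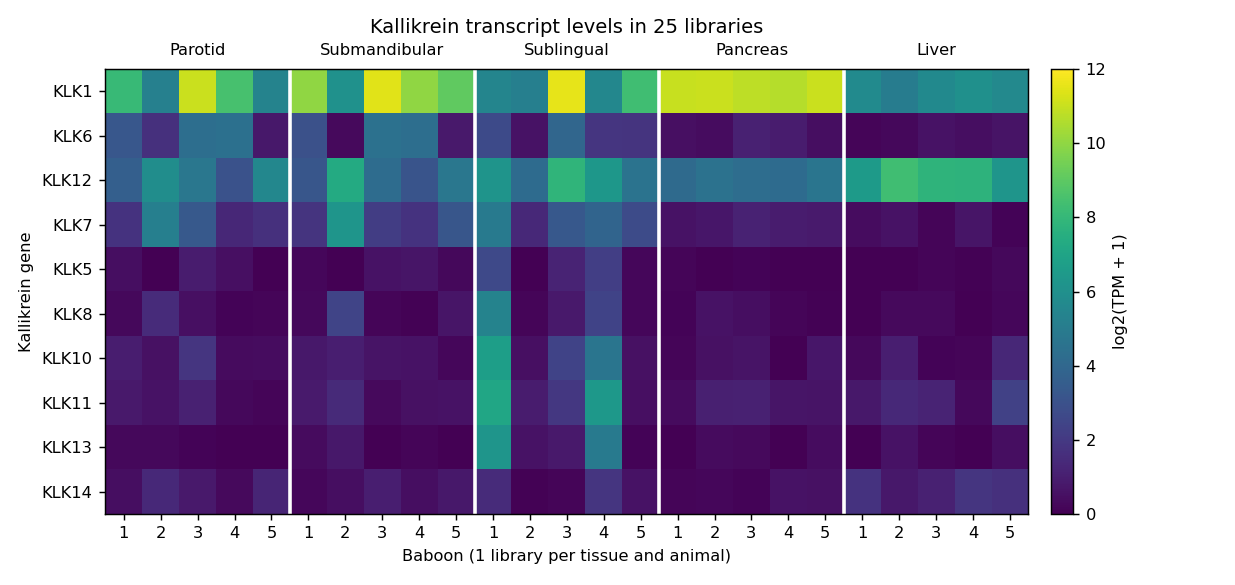
Levels of the 10 kallikrein genes (rows) as log2(TPM + 1) in 25 libraries (columns, grouped by tissue and numbered by baboon). KLK1 is bright across all 5 pancreas libraries and in some gland libraries, KLK12 across the liver, and KLK10, KLK11 and KLK13 in the sublingual libraries of baboons 1 and 4.

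KLK1 was abundant and even in the pancreas. Its pancreas levels were 2010.5, 2136, 1789, 1614 and 2094 TPM in baboons 1 to 5, a mean of 1928 ± 221 TPM (SD, n = 5), and it ranked from 52 to 59 among all genes of those libraries. In liver it was at 52.8, 31.5, 51.0, 63.1 and 49.5 TPM. All pancreas values thus lay far above all liver values. The log2 fold change of pancreas over liver was 5.28 (SE 0.86, limma adjusted p = 5.89e-05). Within the 10 members KLK1 made up 98.7% to 99.1% of the summed level in pancreas and 8.88% to 37.2% in liver.

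The liver level of KLK1 was 1.64% to 3.27% of its pancreas mean. The pancreatic acinar genes CPA1, CPB1, CELA3B, CTRB2 and GP2 were at 0.42% to 1.97% of their own pancreas means in the same liver libraries. Whether the low KLK1 values outside the pancreas share a source with those acinar transcripts was not tested.

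In the salivary glands KLK1 ranged from liver levels to above the highest pancreas value of 2136 TPM. Submandibular levels were 1028, 65.6, 2792, 1020.2 and 535 TPM in baboons 1 to 5 (mean 1088 ± 1032, SD, n = 5). Parotid levels were 266, 36.8, 2113, 359 and 40.4 TPM (563 ± 878). Sublingual levels were 42.8, 35.6, 3040.3, 46.6 and 322 TPM (698 ± 1315). Baboon 3 was the highest animal in each gland and baboon 2 the lowest. Of the 15 gland libraries, 9 were at 266 TPM or more and 6 lay between 35.6 and 65.6 TPM, in or just above the liver range of 31.5 to 63.1 TPM. Of those 6 libraries, 5 were the ones with AQP5 under 10 TPM, and none of the 9 higher libraries was. The other was the sublingual library of baboon 1, with AQP5 at 40.5 TPM. Within each gland the summed salivary serous list (6 genes used) was also lowest in those 5. It was 1846 and 4265 TPM in parotid, 1919 TPM in submandibular, and 1316 and 4903 TPM in sublingual gland. Single genes of the list differed. In parotid ZG16B was highest in baboons 5 and 2 (2047 and 933 TPM) and PIP in baboon 5 (1098 TPM). Sublingual BPIFA2 was highest in baboon 4 (1598 TPM). The part of section content in the low KLK1 values was not tested further.

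Within each animal the submandibular gland held more KLK1 than the parotid gland, in 5 of 5 animals, and it ranked second of the 5 tissues in each of them. The log2 fold change of parotid against submandibular gland was -1.67 (SE 0.86, limma adjusted p = 1), so the pair was not called, and the groups overlapped. No kallikrein was called between these glands, where 0% of 14991 genes were called with limma and 0 members had an unadjusted p under 0.05. Submandibular against sublingual gland gave 2.09 for KLK1 (SE 0.86, adjusted p = 0.304) with a higher submandibular level in 4 of 5 animals, and parotid against sublingual gland gave 0.42 (SE 0.86, adjusted p = 0.931) with 3 of 5.

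Against the pancreas, KLK1 fell in sublingual gland, where the limma estimate was -3.68 on the log2 scale (SE 0.86, adjusted p = 0.00978), and in parotid gland, where it was -3.26 (SE 0.86, adjusted p = 0.0302). The submandibular difference of -1.59 was not called (SE 0.86, adjusted p = 0.506). In each comparison 4 of 5 animals had less KLK1 in the gland, and baboon 3 had more in all 3 glands than in its own pancreas, so no gland stood clear of the pancreas range. Neither call held in every fit. Without the parotid libraries of baboons 2 and 5 and the submandibular library of baboon 2 the parotid value was -1.95 (adjusted p = 0.312), and without the sublingual libraries of baboons 1 and 4 the sublingual value was -2.29 (adjusted p = 0.19). The parotid call was also lost without the animal as a replicate block (adjusted p = 0.113) and without baboon 1, 2, 4 or 5, and the sublingual call without baboon 1 or 4.

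**Figure D2:**
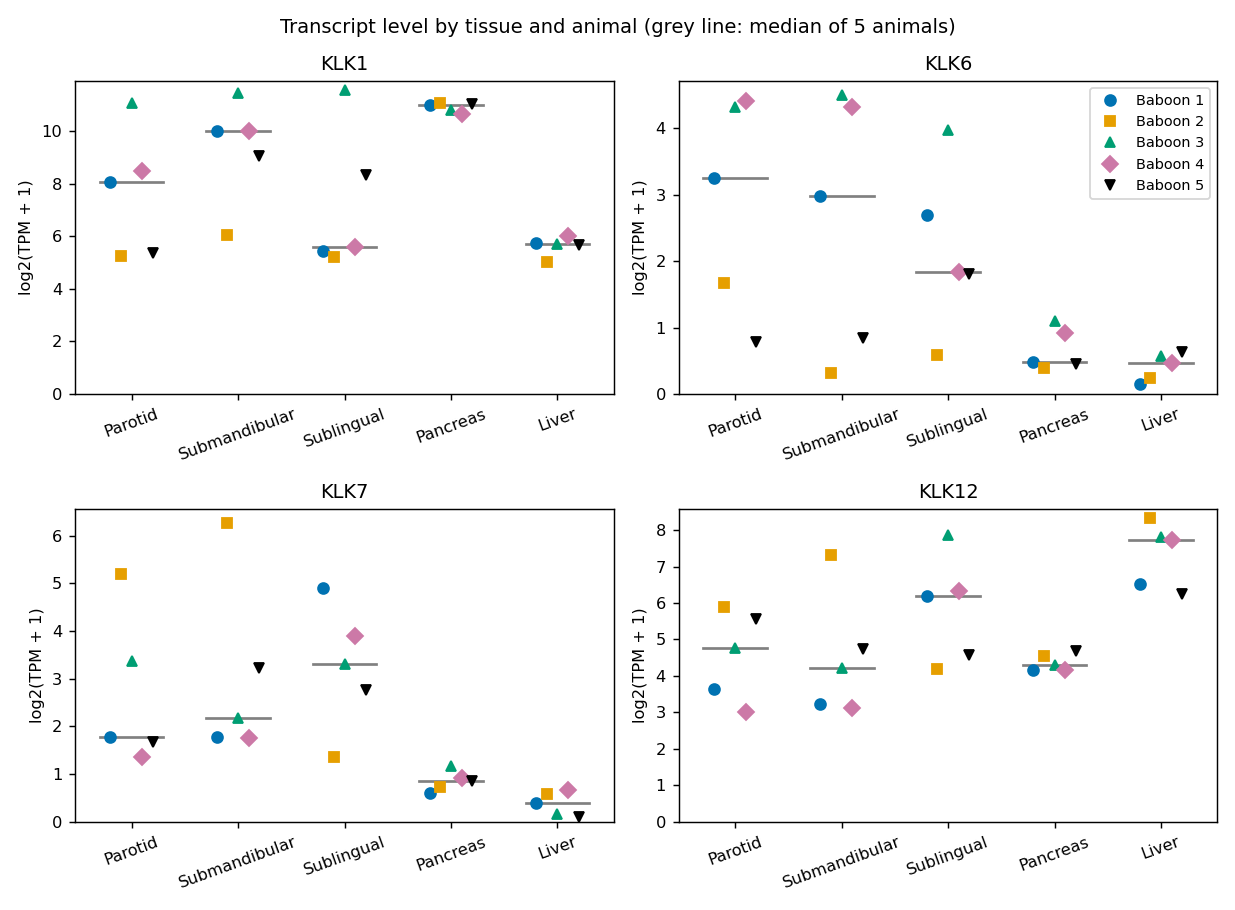
Levels of KLK1, KLK6, KLK7 and KLK12 as log2(TPM + 1) by tissue, with 1 symbol per baboon and a grey line at the median of 5 animals. KLK1 is tight in pancreas and liver and scattered in each gland, where baboon 3 is highest and baboon 2 lowest, KLK7 is above every pancreas value in all 15 gland libraries, and KLK12 is highest in the liver libraries as a group.

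KLK6, a trypsin-like protease first studied in the nervous system, was low in level but followed the glands. Parotid levels were 8.49, 2.18, 18.9, 20.2 and 0.715 TPM in baboons 1 to 5, and submandibular levels were 6.90, 0.240, 21.5, 19.0 and 0.788 TPM. Sublingual levels were 5.46, 0.496, 14.7, 2.58 and 2.48 TPM. The pancreas ranged from 0.308 to 1.13 TPM and the liver from 0.114 to 0.554 TPM. Baboons 1, 3 and 4 were high in both of these glands, and 3 of the 4 libraries of baboons 2 and 5 lay within the pancreas range or under it, so parotid and submandibular values overlapped those of pancreas.

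KLK6 rose against pancreas by 2.22 in parotid (SE 0.55, limma adjusted p = 0.0183) and by 1.92 in submandibular gland (SE 0.55, adjusted p = 0.0479). The sublingual value was 1.51 (SE 0.55, adjusted p = 0.077) and was not called, with the gland above the pancreas in 5 of 5 animals. KLK6 was above the matched pancreas in 5 of 5 parotid and in 4 of 5 submandibular libraries. Without the replicate block the adjusted p was 0.117 and 0.239, and each call was also lost under both scalings and without baboon 1, 3 or 4. KLK6 in the submandibular library of baboon 5 stayed at 0.788 TPM although KLK1 was at 535 TPM there and AQP5 at 61.8 TPM.

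KLK7, the chymotrypsin-like enzyme of the skin surface, was above the whole pancreas range in each of the 15 gland libraries. Its parotid levels were 2.40, 35.7, 9.28, 1.56 and 2.18 TPM in baboons 1 to 5 and its submandibular levels 2.44, 75.4, 3.50, 2.39 and 8.35 TPM. Sublingual levels were 28.9, 1.57, 8.92, 13.8 and 5.78 TPM, against 0.522 to 1.24 TPM in pancreas and 0.0748 to 0.595 TPM in liver. KLK7 was the only member whose gland and pancreas groups did not overlap, which held for 5.64% of all genes tested in parotid, 8.41% in submandibular and 18.2% in sublingual gland against pancreas. The change was called in sublingual gland (2.39, SE 0.74, limma adjusted p = 0.0447) and not in parotid (1.82, SE 0.74, adjusted p = 0.202) or submandibular gland (2.19, SE 0.74, adjusted p = 0.127). In submandibular gland it was called in 4 of 17 fits, among them both scalings (2.11 and 2.13, limma adjusted p = 0.00901 and 0.00892), where KLK6 was not. The sublingual call held in 10 of 17 fits. Among others it was lost without the libraries of baboons 1 and 4 (1.24, limma adjusted p = 0.494) and without that of baboon 3 (adjusted p = 0.0765). It was also lost without any of baboons 1, 3, 4 and 5 as whole animals.

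The highest KLK7 levels were in the submandibular and parotid libraries of baboon 2, where AQP5 was 5.40 and 2.25 TPM, the summed myoepithelial and smooth muscle list (ACTA2, MYH11, CNN1 and TAGLN) was 1189 and 1619 TPM, and KLK1 was near its liver level. The same list was at 45.8 to 510 TPM in the other parotid and submandibular libraries. KLK8, a trypsin-like enzyme known as neuropsin, was also highest within the submandibular and parotid glands in baboon 2. It was at 4.54 and 1.76 TPM there, against at most 0.609 TPM in the other 8 libraries of these glands. The part of any one cell type in these values was not tested.

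KLK5, KLK8, KLK10, KLK11 and KLK13 formed the sublingual pattern. KLK5 starts the activation of other kallikreins in skin, and KLK10, KLK11 and KLK13 are known from squamous and glandular epithelia. Sublingual KLK11 levels were 138, 0.895, 2.82, 82.3 and 0.396 TPM in baboons 1 to 5. KLK10 was at 106, 0.410, 4.27, 24.2 and 0.476 TPM. KLK13 was at 76.0, 0.515, 0.787, 29.0 and 0.0885 TPM. In each case baboons 1 and 4 stood alone, and the highest of the other 23 libraries of any tissue was 3.92 TPM for KLK11, 4.27 TPM for KLK10 and 0.787 TPM for KLK13.

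KLK5 was highest in the same 2 libraries, at lower levels. For KLK8 only baboon 1 stood apart, as 4.31 TPM in baboon 4 lay under 4.54 TPM in the submandibular library of baboon 2. Across baboons 1 to 5 sublingual KLK8 was at 40.1, 0.112, 0.758, 4.31 and 0.173 TPM, and KLK5 at 5.23, 0, 1.30, 3.64 and 0.147 TPM. The ratio of baboon 1 to baboon 4 was 9.30 for KLK8, 4.40 for KLK10, 2.62 for KLK13, 1.67 for KLK11 and 1.44 for KLK5, so the members did not scale together between these 2 libraries. KRT13, the keratin of moist stratified epithelium, was at 50365 and 12518 TPM there, a ratio of 4.02. In those libraries KLK1 was 42.8 and 46.6 TPM and the ionocyte factor ASCL3 of salivary ducts was at 0.0891 and 0.248 TPM. The sublingual library of baboon 3 held KLK1 at 3040.3 TPM, ASCL3 at 39.9 TPM and KRT13 at 72.4 TPM. The whole duct list (7 genes used) did not follow ASCL3: it summed to 110.9, 3.02, 438, 337 and 124 TPM in baboons 1 to 5, second highest in baboon 4.

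**Figure D3:**
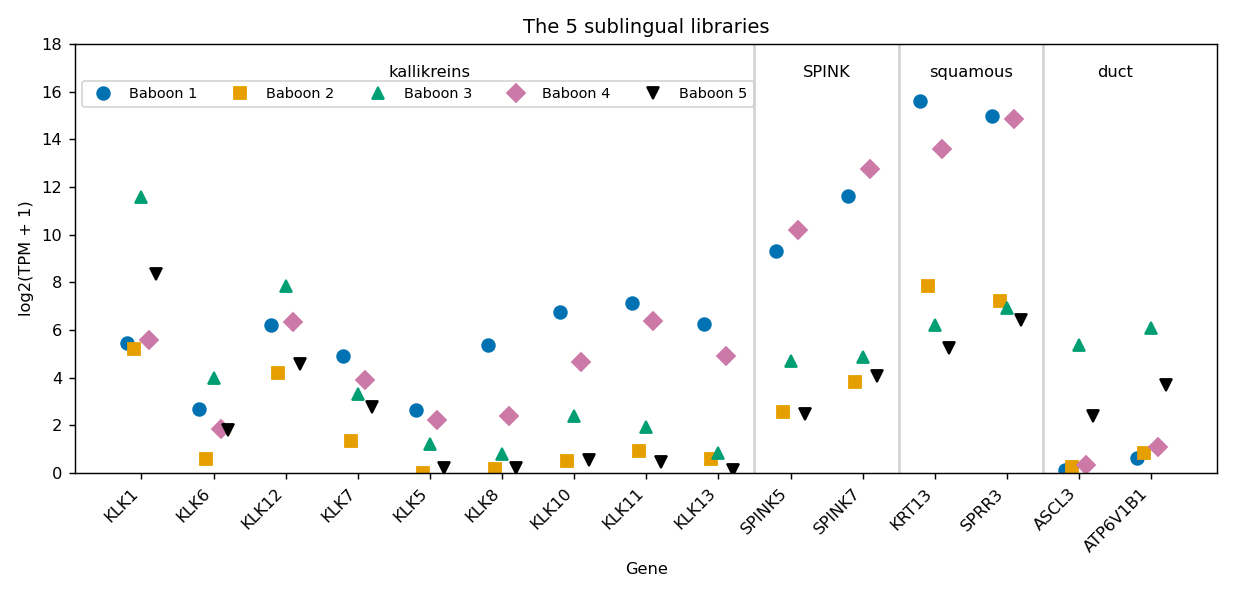
Levels as log2(TPM + 1) of kallikreins, SPINK inhibitors, squamous markers and duct markers in the 5 sublingual libraries, with 1 symbol per baboon. Baboons 1 and 4 are highest for KLK10, KLK11, KLK13, SPINK5, SPINK7, KRT13 and SPRR3, and baboon 3 is highest for KLK1, KLK6, KLK12, ASCL3 and ATP6V1B1. Only these last 2 of the 7 duct list genes are drawn. Of those not drawn, KRT19, CFTR and SLC26A4 were highest in baboon 3. SCNN1B was highest in baboons 1 and 4 (49.1 and 37.2 TPM) and KRT7 in baboon 4 (149 TPM).

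Over the 25 libraries, the 10 pairs among these 5 genes had Pearson r of log2(TPM + 1) from 0.75 to 0.98, and their 25 pairs with the other members had r from -0.33 to 0.72. The 5 genes were grouped by their levels in these same libraries, so a high r among them followed from the grouping. These libraries also share animals and the 2 high libraries carry most of the spread, so the values only describe likeness. Against pancreas, sublingual gland was higher for KLK10 (2.56, SE 0.74, limma adjusted p = 0.0339), KLK13 (2.34, SE 0.72, adjusted p = 0.0443) and KLK5 (1.19, SE 0.33, adjusted p = 0.0255). KLK11 missed the threshold in spite of its level (2.59, SE 0.86, adjusted p = 0.0569), as did KLK8 (1.52, SE 0.65, adjusted p = 0.12). Together with KLK7, 4 members were called higher and 1, KLK1, lower, where 6.97% and 2.49% of all genes tested were called higher and lower. KLK5, KLK10 and KLK13 had entered the test only through their sublingual mean, so nothing is read from this count. The median log2 fold change was 1.51 over the members and 0.63 over all genes tested, and for the same reason nothing is read from it.

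This count turned on the libraries in the fit. It was 0 without the sublingual libraries of baboons 1 and 4, and 9 without the sublingual library of baboon 2, the one rich in skeletal muscle. Without baboons 1 and 4 in the sublingual group, KLK10 was at 0.60 (adjusted p = 0.553), and KLK5 and KLK13 no longer reached a mean of 1 TPM in any tissue. With whole animals left out it was 0 without baboon 1, 0 without baboon 4, 1 without baboon 3 and 9 without baboon 2. Calls over all genes moved the same way. From 1419 of 14991 they became 579 and 3987 in the 2 fits without sublingual libraries. Without baboons 1, 4, 3 and 2 they became 393, 588, 505 and 3011, of 14718 to 15164 genes tested. The swing is therefore not read as a trait of the kallikreins.

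Between the glands, 0 members were called in either comparison with the sublingual gland by limma. The parotid comparison called 0.113% and the submandibular comparison 0.0667% of all genes tested. At an unadjusted limma p under 0.05 there were 4 and 5 members. The share of all genes at that p was not computed, so nothing is read from these counts. KLK11 was at -2.78 in parotid against sublingual gland (SE 0.86, limma adjusted p = 0.225) and at -2.62 in submandibular against sublingual gland (SE 0.86, adjusted p = 0.24). KLK13 was at -2.43 (SE 0.72, adjusted p = 0.199) and -2.28 (SE 0.72, adjusted p = 0.219), and KLK10 at -2.15 (SE 0.74, adjusted p = 0.287) and -2.33 (SE 0.74, adjusted p = 0.219). Without the sublingual library of baboon 2, KLK10, KLK11 and KLK13 were called in both comparisons and KLK5 in the submandibular one. As KLK5, KLK10 and KLK13 had entered the tests only through their sublingual mean, their values here describe levels and no more.

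Low KLK11 levels in liver stood beside squamous transcripts. In liver KLK11 was at 0.704, 1.65, 1.26, 0.194 and 3.92 TPM in baboons 1 to 5. SPRR3, a cornified envelope gene of squamous epithelium, was at 0.151, 199, 72.7, 0.75 and 273 TPM in the same libraries. KLK11 was highest in the liver libraries of baboons 5, 2 and 3, as was SPRR3. The summed squamous list (9 genes used) was highest in baboon 2 (634 TPM), then baboon 5 (533 TPM) and baboon 3 (123 TPM). Of its genes, KRT14 was lowest in baboon 3 and TP63 in baboon 2. In pancreas SPRR3 was at 195, 116 and 114 TPM in baboons 2, 3 and 5 and was listed at 0 in baboons 1 and 4. Pancreas KLK11 was at 1.11, 1.16 and 0.566 TPM in baboons 2, 3 and 5, and at 0.292 and 0.596 TPM in baboons 1 and 4. The part of squamous transcripts in these low values was not tested.

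KLK12, a trypsin-like enzyme, was found in every library and was highest as a group in liver. From gene-level values it could not be checked which transcript the liver reads came from, so the KLK12 values are those of the row with that symbol. Liver levels were 91.7, 319, 222, 213 and 74.6 TPM in baboons 1 to 5 (mean 184 ± 101, SD, n = 5), against 17.0 to 24.8 TPM in pancreas (19.9 ± 3.43). The groups did not overlap, and the log2 fold change of pancreas against liver was -2.95 (SE 0.71, limma adjusted p = 0.00354), called in all 17 fits run. Parotid levels were 11.4, 58.5, 26.0, 7.07 and 45.8 TPM and submandibular levels 8.32, 158, 17.7, 7.67 and 25.8 TPM. The parotid libraries of baboons 2 and 5 and the submandibular library of baboon 2, those with AQP5 under 10 TPM, were the highest of their gland.

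In sublingual gland KLK12 was at 72.4, 17.1, 231, 80.0 and 22.9 TPM, with the highest value in baboon 3, the library rich in KLK1. Its change against pancreas of 1.46 was not called (SE 0.71, limma adjusted p = 0.161). Liver was the highest tissue for KLK12 in 4 of 5 animals, and in baboon 3 the sublingual gland (231 TPM) and the liver (222 TPM) were close.

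KLK14, which acts with KLK5 in the skin, was low throughout. Its liver levels were 2.34, 0.712, 1.14, 2.65 and 2.14 TPM and its pancreas levels 0.0812 to 0.484 TPM, without overlap. The log2(TPM + 1) change of pancreas against liver was -1.11 (SE 0.33, limma adjusted p = 0.0211), near the threshold of 1, and it was called in 10 of 16 fits. The 2 sublingual libraries with squamous markers held 1.81 and 2.64 TPM, as much as the liver, and the other 3 at most 0.477 TPM.

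By comparison, then, parotid against pancreas had 1 member called higher (KLK6) and 1 lower (KLK1), where 1.41% and 2.4% of genes tested were called higher and lower. Submandibular gland against pancreas had 1 higher (KLK6) and 0 lower, where 1.27% and 2.81% were called. There 2 members had an unadjusted p under 0.05 by limma, without a share of all genes at that p. Pancreas against liver had 1 higher (KLK1) and 2 lower (KLK12 and KLK14), where 2.86% and 14.6% were called, and 3 members did not overlap, against 38.5% of all genes tested. For pancreas against liver the shares of members were thus near those of all genes. The median log2 fold change over the members was 0.27, 0.24 and -0.04 in these comparisons, against 0.45, 0.17 and -0.44 over all genes tested.

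Scaling the libraries by median of ratios brought those all-gene medians to 0.04, 0.02 and -0.004, and the sublingual one to 0.11, as that scaling does by construction. Of called genes in sublingual gland against pancreas, 73.6% were higher as deposited, 39.7% with median-of-ratios and 31.2% with upper-quartile scaling. For pancreas against liver these shares were 16.3%, 40.8% and 52.3%, and for parotid against sublingual gland 17.6%, 41.5% and 55.9%, of 17, 53 and 59 calls. Every member called against pancreas or liver kept its direction under both scalings. Among members not called, KLK12 changed sign in parotid (0.19, then -0.33 with median-of-ratios scaling) and submandibular gland (0.15, then -0.05), KLK13 in submandibular gland, KLK10 and KLK13 in pancreas against liver, and KLK11 there with upper-quartile scaling.

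**Figure D4:**
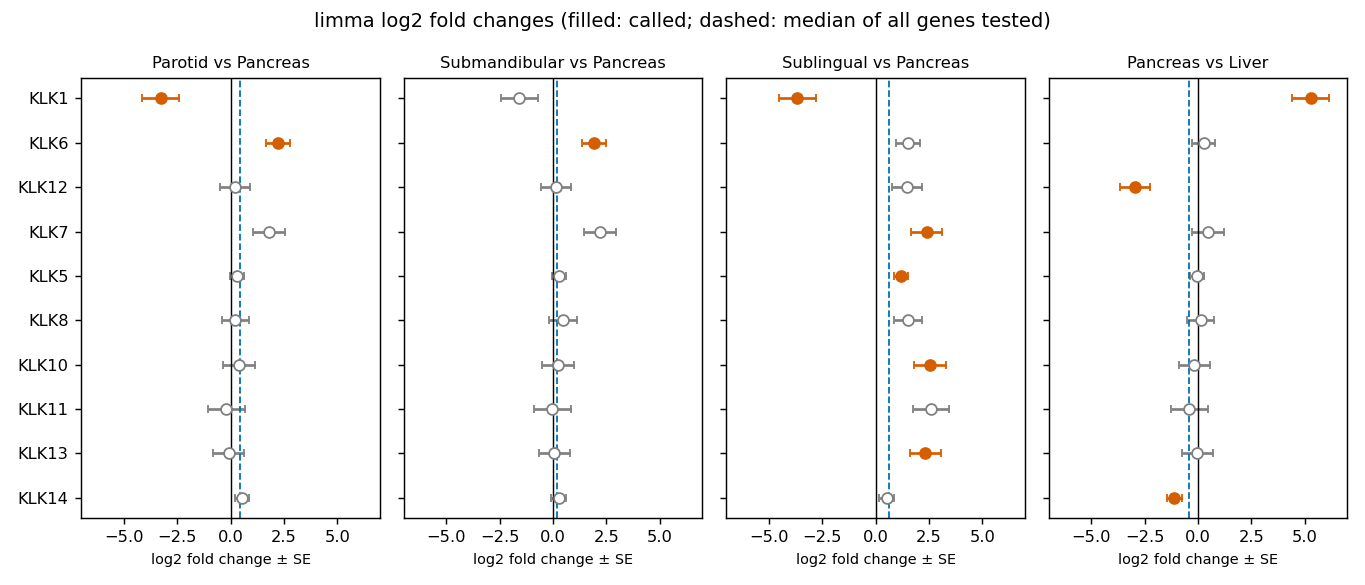
limma log2 fold changes of the 10 members (points, bars ± SE) in 4 comparisons, the first-named tissue over the second. Filled orange points were called, open grey ones were not, and the dashed line is the median of all genes tested. KLK1 is far right for pancreas against liver, and 4 members are filled on the right for sublingual gland against pancreas.

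Partners of the kallikreins were examined with 3 lists: the kinin system, kallikrein inhibitors, and activators and targets. KNG1, which encodes the kininogen that KLK1 cuts, was at 614 ± 187 TPM in liver (SD, n = 5), with tissue means from 2.61 to 5.70 TPM in each of the other 4 tissues. Of the 7 kinin genes tested, 4 were lower in pancreas than in liver and 0 higher, where 14.6% and 2.86% of all genes tested were called lower and higher. KNG1 fell by 6.54 (SE 0.37, limma adjusted p = 2.09e-12), KLKB1, the plasma kallikrein of another gene family, by 5.06 (SE 0.26), CPN1, a carboxypeptidase that trims kinins, by 4.75 (SE 0.28) and MME, the peptidase neprilysin, by 1.65 (SE 0.42). In sublingual gland against pancreas 1 of 7 was higher, MME (1.53, SE 0.42, adjusted p = 0.0275; called in 11 of 16 fits), and in parotid and submandibular gland 0 of 7 were called by limma, with 1 and 2 at an unadjusted p under 0.05.

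BDKRB2, the constitutive bradykinin receptor, was low in pancreas (0.549 to 1.71 TPM) and at no more than 0.142 TPM in liver. Its 3 highest libraries were the submandibular and parotid libraries of baboon 2 (26.2 and 8.44 TPM) and, at 5.89 TPM, the sublingual library of baboon 1, which were also the 3 highest for KLK7. The gland libraries with the most KLK1, those of baboon 3, held BDKRB2 at 0.262 TPM in parotid and 0.24 TPM in submandibular gland, and it was listed at 0 in sublingual gland.

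Among inhibitors, SPINK5 encodes LEKTI. Its sublingual levels were 645, 4.94, 25.0, 1172 and 4.53 TPM in baboons 1 to 5, with no more than 8.94 TPM in any library of the other tissues. It was higher in sublingual gland than in pancreas (4.42, SE 1.15, limma adjusted p = 0.0192). SPINK7, another Kazal-type inhibitor of squamous epithelium, reached 3124 and 6857 TPM in the same 2 libraries. In both genes baboon 4 exceeded baboon 1, the reverse of KLK5, KLK7, KLK8, KLK10, KLK11 and KLK13. The SPINK5 call held in 12 of 17 fits (limma adjusted p from 0.00258 to 0.324). It was lost when only the tissues compared were fitted, without baboon 1, 3 or 4, and without the squamous-rich sublingual sections (1.30).

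SERPINA4, which encodes kallistatin, an inhibitor of KLK1, was at 90.9 ± 25.3 TPM in liver, 8.43 ± 3.13 TPM in pancreas (SD, n = 5), and its gland means lay between 0.598 and 1.00 TPM. It was lower than pancreas in parotid (-2.48, SE 0.35, limma adjusted p = 4.17e-05), submandibular (-2.54, SE 0.35) and sublingual gland (-2.18, SE 0.35), and called in all 17 fits for each. SERPINA3, the antichymotrypsin gene, was lower than pancreas in parotid (-3.44, SE 0.71) and submandibular gland (-3.70, SE 0.71), and SERPINA5, the protein C inhibitor gene, in submandibular gland (-2.43, SE 0.62). All 3 serpins were lower in pancreas than in liver, and no inhibitor of the 6 tested was higher there. The SERPINA3 call there held in 13 of 17 fits and was lost under both scalings (-1.86 and -1.60, limma adjusted p = 0.0665 and 0.122) and without baboon 3 or 4. The SERPINA5 call in submandibular gland held in 14 of 17 fits and was lost without baboon 1, 3 or 4. Counts against pancreas were thus 0 higher and 2 lower in parotid, 0 and 3 in submandibular gland, and 1 and 1 in sublingual gland, where all genes gave 1.41% and 2.4%, 1.27% and 2.81%, and 6.97% and 2.49%.

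Of 9 activators and targets tested, where 2.86% and 14.6% of all genes were called higher and lower, 4 were higher in pancreas than in liver and 0 lower: ST14 (2.35, SE 0.48, limma adjusted p = 0.000765), the membrane protease matriptase, PRSS8 (2.04, SE 0.67), the protease prostasin, F2RL1 (1.24, SE 0.32), a receptor that kallikreins can cleave, and EGF (2.28, SE 0.43). EGF, a growth factor known from salivary secretion in rodents, was lower than pancreas in parotid (-1.65, SE 0.43, adjusted p = 0.0258) and submandibular gland (-1.55, SE 0.43, adjusted p = 0.0387; called in 12 and 9 of 17 fits), the only gene of this list called there. The PRSS8 call held in 12 of 17 fits and was lost without the replicate block (limma adjusted p = 0.108), with no filter on low values (0.0578) and without baboon 1, 3 or 4. The F2RL1 call was lost without baboon 1 or 4. In sublingual gland 0 of 9 were called by limma, with 4 at an unadjusted p under 0.05. For pancreas against liver the median log2 fold change was -1.65 over the kinin genes, -1.65 over the inhibitors and 1.24 over the activators and targets, against -0.44 over all genes. Between glands 0 genes of the 3 lists were called, with 0 at an unadjusted p under 0.05 in parotid against submandibular gland by limma. Against sublingual gland 0 kinin genes, 2 inhibitors and 4 activators and targets had such a p in parotid, and 1, 3 and 3 in submandibular gland. Shares of all genes at that p were not computed, so nothing is read from these counts.

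**Figure D5:**
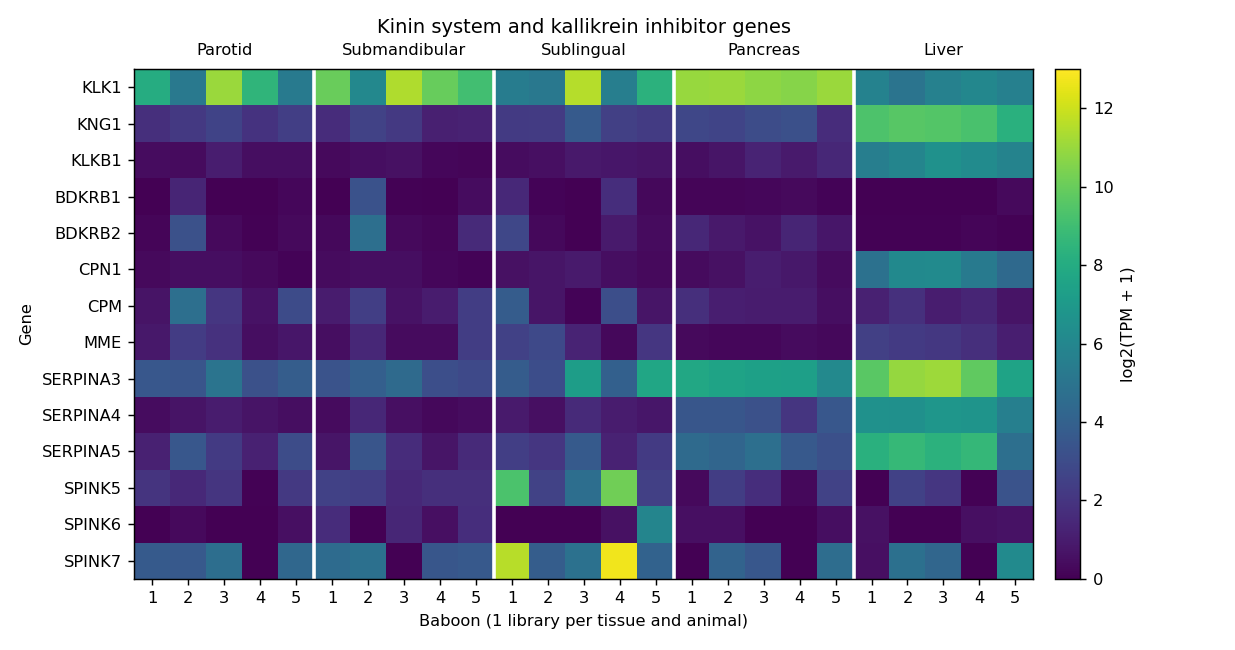
Levels as log2(TPM + 1) of KLK1, kinin system and inhibitor genes (rows) in 25 libraries (columns, grouped by tissue and numbered by baboon). KNG1, KLKB1, CPN1 and SERPINA4 are bright in liver, SPINK5 and SPINK7 in sublingual baboons 1 and 4, and KLK1 in pancreas and some glands.

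For each member, the named genes most like it over the 25 libraries, up to 3, were listed by Pearson r of log2(TPM + 1). For KLK1 they were FXYD2, a subunit that regulates the sodium pump (r = 0.89), TMC4 (0.87) and CRACR2B (0.86). Mean FXYD2 was 793 ± 1040 TPM in submandibular gland and 254 ± 143 TPM in pancreas, and sublingual gland had the widest spread, at 836 ± 1609 TPM (SD, n = 5). For KLK6 they were MPO (0.88), PRR4, a salivary proline-rich protein gene (0.85), and PCP4 (0.85), and for KLK7 they were CD9 (0.94), PDLIM4 (0.94) and MBOAT1 (0.93).

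For KLK13 the nearest were DUOX1 (0.996), DUOXA1 (0.993), which encode a hydrogen peroxide generating oxidase and its maturation factor, and SERPINB11 (0.99). KLK11 was nearest to KLK13 (0.98), SLURP1 (0.98) and CLDN17 (0.97), and those near KLK10 included CAPNS2 (0.97) and UPK3BL2 (0.96). Among the genes nearest to KLK5 were FERMT1 (0.94) and KLK10 (0.94), and KLK8 was nearest to PGLYRP4 (0.96), N4BP3 (0.96) and ZBTB7C (0.95). KLK12 was nearest to LRRC43 (0.93), TBC1D2 (0.92) and PTMS (0.92), and KLK14 to CEMP1 (0.86), PF4V1 (0.85) and MELK (0.85). So 2 of the 10 members had another member among their 3 nearest genes, KLK5 and KLK11.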

How the data were processed

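The deposited table held TPM per gene, which the authors made with kallisto per the file's name. The submitters' processing notes also list FastQC, MultiQC, cutadapt, HISAT2, SAMtools, featureCounts and DESeq2 without roles. Versions, index and genome build are not given in the sources used here. Library totals lay between 999999.5 and 1000000.6 TPM, so depth is unknown, no counting error can be given, and precision rests on 5 animals. Per the labels' protocols, RNA came from 3 sections of 30 µm per sample, read as paired 150 bp.

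Genes averaging 1 TPM or more in some tissue, 14991 in all, were fitted with limma 3.58.1 in R 4.3.3 (trend) on log2(TPM + 1), a scale that understates changes of low genes, with tissue and animal as terms over all 25 libraries. In 7 comparisons, calls needed a Benjamini-Hochberg adjusted p under 0.05 over all genes tested and a log2 fold change of 1 or more in either direction. The share of all genes at an unadjusted p under 0.05 was not computed, so member and list counts at that p have no background. The labels tie libraries to animals. Deviations from tissue means correlated at 0.161 within and -0.035 between animals. The fit was tested on simulated data with normal noise smaller than that seen here and no libraries that stood apart. That test therefore does not cover the unequal sections or the members at low levels. Levels and figures came from pandas 2.3.3, numpy 2.4.6 and matplotlib 3.10.9 under Python 3.11.15.

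Members and lists were chosen with earlier results of these data known. All members are named. List genes are named where called or central, and the 3 genes with the highest r per member, of which 1 is not reported here. Of 92 listed symbols, 5 were not used. RefSeq supplied gene order only, so no coordinates or sequences are given. The alternatives left out the animal term, fitted only the tissues compared, or used 2 scalings, 2 filters on low values, a pseudocount of 0.1 or 4 of the 5 animals. Fits without libraries that stand apart were chosen after seeing the data.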

Additional observations from a re-analysis of the deposited data

Results flagged for a closer look

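In 10 of 50 combinations of member and tissue, 1 of the 5 libraries lay apart from the rest by more than Dixon's 95% critical value, and each time it was the highest. A rate of about 1 in 20 by chance holds only for values with a normal spread. The rule was run on TPM and not on log2(TPM + 1), which favours high values, and the tissues share animals. The 10 are therefore not read against that rate. KLK1 stood out in baboon 3, at 2113 TPM in parotid (next 359 TPM) and 3040.3 TPM in sublingual gland (next 322 TPM). KLK7 stood out in baboon 2, at 35.7 TPM in parotid and 75.4 TPM in submandibular gland, as did KLK8 at 1.76 and 4.54 TPM and KLK12 at 158 TPM in submandibular gland. KLK8 at 40.1 TPM and KLK10 at 106 TPM stood out in the sublingual library of baboon 1. KLK10 at 2.59 TPM stood out in the parotid library of baboon 3.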

How the results depend on the processing

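The count of kallikreins called in parotid against pancreas was 2. It was 0 with no replicate block and with only the tissues compared, and 1 with median-of-ratios scaling, upper-quartile scaling, no filter on low values, and without the parotid libraries of baboons 2 and 5 and the submandibular library of baboon 2. In submandibular gland against pancreas it was 1, then 0 with no replicate block, only the tissues compared, no filter, or without the sublingual library of baboon 3, and 2 with a pseudocount of 0.1 or without the sublingual library of baboon 2. In sublingual gland against pancreas it was 5, then 1 with only the tissues compared, 3 with upper-quartile scaling, 2 with no filter, 0 without the sublingual libraries of baboons 1 and 4, 9 without that of baboon 2, and 8 without the 3 parotid and submandibular libraries. The 0 of parotid and of submandibular against sublingual gland became 3 and 4 without the sublingual library of baboon 2, and 2 and 5 without those 3 libraries. Leaving out each animal gave 0 to 1 in parotid and in submandibular gland against pancreas, 0 to 9 in sublingual gland against pancreas, 2 to 3 in pancreas against liver, and 0 to 7 in submandibular against sublingual gland, with 7 without baboon 2. The cause was not tested. Of 759 single-gene values under alternatives, 628 kept direction and call, 96 lost a call, 31 gained one and 4 changed sign. KLK1 in parotid against sublingual gland ranged from -0.21 to 1.26 with animals left out and was -0.97 without the sublingual libraries of baboons 1 and 4, where KLK8 in sublingual gland against pancreas was -0.075. A mean of at least 5 TPM left KLK5 and KLK14 untested. Calls over all genes also moved by over 1.5 times, and between glands not every such move is given. In parotid against pancreas 572 became 208 with only the tissues compared, 1226 and 1270 under the scalings, and 315 without baboon 3. In submandibular gland 611 became 1283 and 1306 under the scalings and 968 without the 3 parotid and submandibular libraries. It became 339, 326 and 347 without baboons 1, 3 and 4 in turn. In sublingual gland 1419 became 888 with only the tissues compared, 579 without baboons 1 and 4 there, 3987 without baboon 2 there, and 3896 without those 3 libraries. With whole animals left out it became 393, 3011, 505, 588 and 921 for baboons 1 to 5. In pancreas against liver 2623 became 4308 with only the tissues compared and 1722 without baboon 3. In parotid and submandibular against sublingual gland 17 and 10 became 397 and 650 without the sublingual library of baboon 2, 404 and 2627 without baboon 2, and 3283 and 3723 without those 3 libraries.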

Other observations

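The table also held 4 genes with a kallikrein symbol that are not among the 10. KLK15 was at no more than 0.352 TPM in pancreas and 0.126 TPM in liver, and reached 6.44 TPM in the sublingual, 3.48 TPM in the submandibular and 3.05 TPM in the parotid library of baboon 3, the libraries with the most KLK1 in each gland. Its highest submandibular value was 3.76 TPM in baboon 2, where KLK1 was at 65.6 TPM. KLK3, known in human as prostate-specific antigen, was highest in the same 3 libraries of baboon 3 (6.03, 1.28 and 1.91 TPM) and at no more than 0.14 TPM in pancreas. KLK4 was highest in the parotid library of baboon 2 (2.54 TPM). KLK9 did not exceed 0.886 TPM, its value in the sublingual library of baboon 4. These genes neighbour KLK1 (KLK15, then KLK3) and KLK10 (KLK9), and whether kallisto shared reads between related genes was not tested, so these low values are uncertain. They were chosen after their values were seen.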
